A study of Mus musculus with 42 samples.

Results

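The Wnt signalling genes examined here were the 56 gene symbols, of 24466 in the count tables, that begin with Wnt, Fzd, Dkk, Sfrp or Rspo and a number, together with Lgr4, Lgr5, Lgr6, Lrp5, Lrp6, Ror1, Ror2, Wif1, Axin1, Axin2, Ctnnb1, Tcf7, Tcf7l1, Tcf7l2 and Lef1. They were chosen by name and not by their values. By role they comprised 19 Wnt ligands, 14 receptors (Fzd, Lrp5, Lrp6, Ror1 and Ror2), 7 R-spondin and Lgr genes, 9 antagonists (Dkk, Sfrp and Wif1), 3 genes of the Axin and β-catenin group and 4 Tcf/Lef factors.

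RNA was sequenced from 3 groups. The +Dox group (3 libraries) was iPax7 myogenic progenitors, a mouse embryonic stem cell derivative carrying a doxycycline-inducible Pax7 transgene, sorted from embryoid bodies as PDGFαR+Flk-1- cells and kept in 0.75 µg/ml doxycycline (Dox). The -Dox group (2 libraries) was the same transgenic progenitors 3 days after Dox was withdrawn. The satellite cell group (3 libraries) was muscle stem cells sorted by the fluorescent reporter of Pax7-ZsGreen mice and used without culture. Histone marks were profiled in +Dox and 3-day -Dox progenitors, Pax7 binding in +Dox progenitors, and open chromatin by ATAC-seq in +Dox progenitors, at 12 h, 24 h and 3 days without Dox, and in satellite cells. Pax7 in the +Dox progenitors comes from a Dox-driven transgene in 1 engineered line, so differences from satellite cells also include culture and developmental origin. No source states whether libraries of a group came from separate cultures or animals, so p-values measure only the spread between these libraries, which may be technical.

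Wnt ligands are secreted lipid-modified proteins that bind Frizzled receptors. With the co-receptors Lrp5 and Lrp6 they stop the Axin-containing destruction complex from degrading β-catenin, which then enters the nucleus and switches Tcf/Lef factors from repressing to activating their target genes. Other Wnts, such as Wnt5a, act through Ror receptors without β-catenin. R-spondins acting through Lgr4, Lgr5 and Lgr6 raise receptor numbers at the surface. Most Dkk and Sfrp proteins, and Wif1, block the signal from outside the cell. In muscle the pathway patterns the embryonic myotome and takes part in the activation and differentiation of satellite cells.

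The 8 libraries held 39010958 to 54674619 counts on genes, and 14836 genes had enough counts to be tested. Pax7, the induced gene, checked the labels: its normalised counts (counts scaled to a common library size of 47289134) were 12759, 14130 and 11610 in +Dox, 221 and 270 in -Dox, and 8504, 3926 and 5456 in satellite cells. It fell by 5.71 on the log2 scale without Dox (SE 0.44, adjusted p = 8.08e-05). Without Dox, the summed normalised counts of 9 genes of differentiating muscle (Myog, Acta1 and others) were 1980000 to 2050000, against 9500 to 10900 in +Dox and 9500 to 16200 in satellite cells. The satellite cell libraries carried markers of other cells of muscle tissue: 26 of 31 markers of fibroblasts, tendon, Schwann cells, endothelium, smooth muscle and blood were called higher than in +Dox, with sums of 13700 to 20000 for 5 endothelial genes and 72200 to 139000 for 8 fibroblast genes, against at most 167 and 12600 in +Dox and at most 22.2 and 5970 in -Dox. Of those 31 markers, 11 were at 0 in every +Dox library and 10 in every -Dox library, while 28 had at least 3 counts in every satellite cell library. The part of these cells in the satellite cell results was not tested. In bulk RNA, fewer cells of a type and less RNA per cell cannot be told apart. The satellite cell libraries also had 23.58 to 30.68% of alignments set aside as multiply aligned, against 7.112 to 7.604% in the progenitors.

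Of the 56 genes, 43 had enough counts to be tested. The other 13 were Dkk1, Dkk4, Fzd10, Rspo4 and 9 of the 19 Wnt ligands, namely Wnt1, Wnt3, Wnt3a, Wnt7a, Wnt8a, Wnt8b, Wnt9b, Wnt10a and Wnt10b. Of these 13, 7 (Dkk1, Rspo4, Wnt3a, Wnt8a, Wnt8b, Wnt9b and Wnt10a) had under 3 counts in every library. The highest count of the remaining 6 was 54, for Wnt7a in 1 +Dox library, and the other 2 +Dox libraries had normalised counts of 1.48 and 0 for it. Wnt1 and Wnt3a, the ligands classically assigned to the neural tube signal that patterns the myotome, were thus at or near the detection limit in all 3 kinds of cells.

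Few of the genes were called after loss of Pax7 induction, and many were called between progenitors and satellite cells, in each case at about the rate of genes in general. In -Dox against +Dox, 2 of the 43 tested genes were called higher (Ror1 and Wif1) and 1 lower (Tcf7l2), which is 6.98% against 7.7% of all genes tested (4.66% higher and 3.04% lower). The threshold for a call was a Benjamini-Hochberg adjusted p of 0.05 over all 14836 genes, from the quasi-likelihood F test of edgeR, and 12 of the 43 had an unadjusted p under that value. In satellite cells against +Dox, 13 were called higher and 6 lower, 44.2% against a background of 44.9% (25.1% higher and 19.8% lower). In satellite cells against -Dox, 12 were called higher and 3 lower, 34.9% against 39.0% (20.9% higher and 18.1% lower). The median log2 fold change of the 43 genes was -0.32, 0.30 and 0.77 in these comparisons, and that of all genes tested was -0.005, 0.174 and 0.231. The satellite cell comparisons therefore carry a shift of the centre of all genes of the size given, and each pair of comparisons shares a group of libraries.

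**Figure D1:**
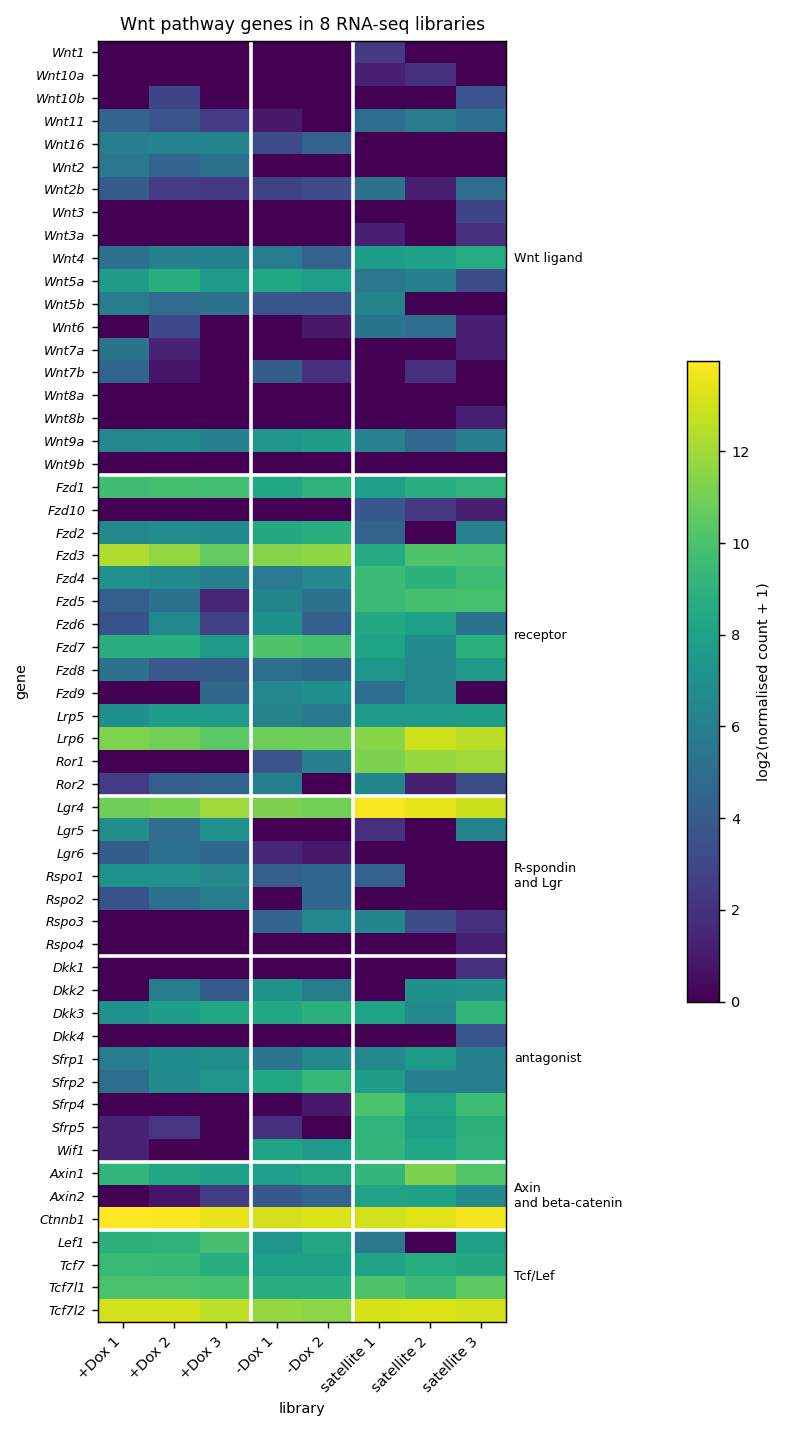
Heat map of log2(normalised count + 1) for the 56 Wnt pathway genes (rows, grouped by role) in the 8 RNA-seq libraries (columns, grouped as +Dox, -Dox and satellite cells). Ctnnb1, Tcf7l2, Lgr4 and Lrp6 were high in every library, and Fzd3 was high in the progenitors and lower in satellite cells. Most Wnt ligands were low or at 0, and Ror1, Sfrp4, Sfrp5 and Wif1 were at or near 0 in +Dox and high in satellite cells.

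The withdrawal of Dox changed 1 receptor, 1 antagonist and 1 nuclear factor. Ror1 encodes a receptor tyrosine kinase-like protein that binds Wnt5a and is best known from embryonic tissues. Its normalised counts were 0 in all 3 +Dox libraries, 11.9 and 67.4 in -Dox, and 2335, 3445 and 4012 in satellite cells. The 3 groups did not overlap, and the level without Dox was low. It was at least 16.5-fold higher in -Dox than the floor of 3 counts per library allows for +Dox (adjusted p = 0.00707). With only the +Dox and -Dox libraries in the fit, Ror1 did not pass the test (adjusted p = 0.0581, and 0.105 when blocked on library number).

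Wif1 encodes a secreted protein that binds Wnt ligands and keeps them from their receptors. Its normalised counts were 1.5, 0 and 0 in +Dox, 281 and 181 in -Dox, and 581, 308 and 513 in satellite cells. Both -Dox libraries lay far above all 3 +Dox libraries and below all 3 satellite cell libraries. The ratio of -Dox to +Dox was 437, with a 95% counting interval of 120 to 3618 because +Dox held so few counts (adjusted p = 0.00181). Satellite cells had 885 times the +Dox level (counting interval 244 to 7317, adjusted p = 0.000197), and they did not pass the test against -Dox (adjusted p = 0.356).

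Tcf7l2 encodes one of the factors through which β-catenin reaches its target genes, and was the most abundant Tcf/Lef transcript in every group. It had normalised counts of 8284, 8252 and 6202 in +Dox, 3417 and 2953 in -Dox, and 9056, 9252 and 8715 in satellite cells. Both -Dox libraries were far below all others, and the satellite cell libraries were slightly above the highest +Dox library. Tcf7l2 fell by 1.25 on the log2 scale in -Dox (SE 0.26, adjusted p = 0.0174) and was 1.5 higher in satellite cells than in -Dox (SE 0.26, adjusted p = 0.00181). Against +Dox it did not pass the test (log2 fold change 0.25, adjusted p = 0.382). The call in -Dox was lost when +Dox 1, +Dox 2, -Dox 1 or -Dox 2 was left out (adjusted p = 0.0626, 0.0778, 0.136 and 0.214), and the log2 fold change ran from -1.38 to -1.14 over the 8 libraries left out in turn.

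The promoters of these 3 genes are shown because the histone marks described further on distinguish them. Each line gives the 250 bases before the start of the longest transcript, in the mm9 build and on the + strand, with every CG dinucleotide in capitals. Ror1 is at chr4:99768146-99768395, Wif1 at chr10:120470766-120471015 and Tcf7l2 at chr19:55816050-55816299, and none of the windows overlaps an annotated exon.
Ror1: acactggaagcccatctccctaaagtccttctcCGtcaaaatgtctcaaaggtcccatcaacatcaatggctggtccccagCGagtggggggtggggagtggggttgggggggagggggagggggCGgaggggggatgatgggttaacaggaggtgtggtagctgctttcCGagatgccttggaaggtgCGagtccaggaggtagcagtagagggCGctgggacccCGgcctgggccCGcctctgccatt
Wif1: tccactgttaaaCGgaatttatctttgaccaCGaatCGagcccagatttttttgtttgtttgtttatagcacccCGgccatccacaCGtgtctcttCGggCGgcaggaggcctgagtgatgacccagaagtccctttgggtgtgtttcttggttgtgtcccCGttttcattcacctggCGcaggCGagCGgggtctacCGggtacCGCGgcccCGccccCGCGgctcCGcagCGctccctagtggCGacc
Tcf7l2: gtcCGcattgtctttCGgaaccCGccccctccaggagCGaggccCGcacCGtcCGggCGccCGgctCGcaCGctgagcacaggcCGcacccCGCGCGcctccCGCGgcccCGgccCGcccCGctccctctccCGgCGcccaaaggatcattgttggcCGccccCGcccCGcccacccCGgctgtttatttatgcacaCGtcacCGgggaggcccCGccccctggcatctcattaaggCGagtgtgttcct
The windows hold 8, 20 and 30 CG dinucleotides for Ror1, Wif1 and Tcf7l2 respectively. Over the promoters of the 56 genes the count ran from 3 to 48 with a median of 20.5, against a median of 9 over 20660 annotated genes. The Tcf/Lef core CTTTGA, or TCAAAG on the other strand, occurred in 7 of the 56 windows (12.5%) and in 12.91% of all genes' windows.

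**Figure D2:**
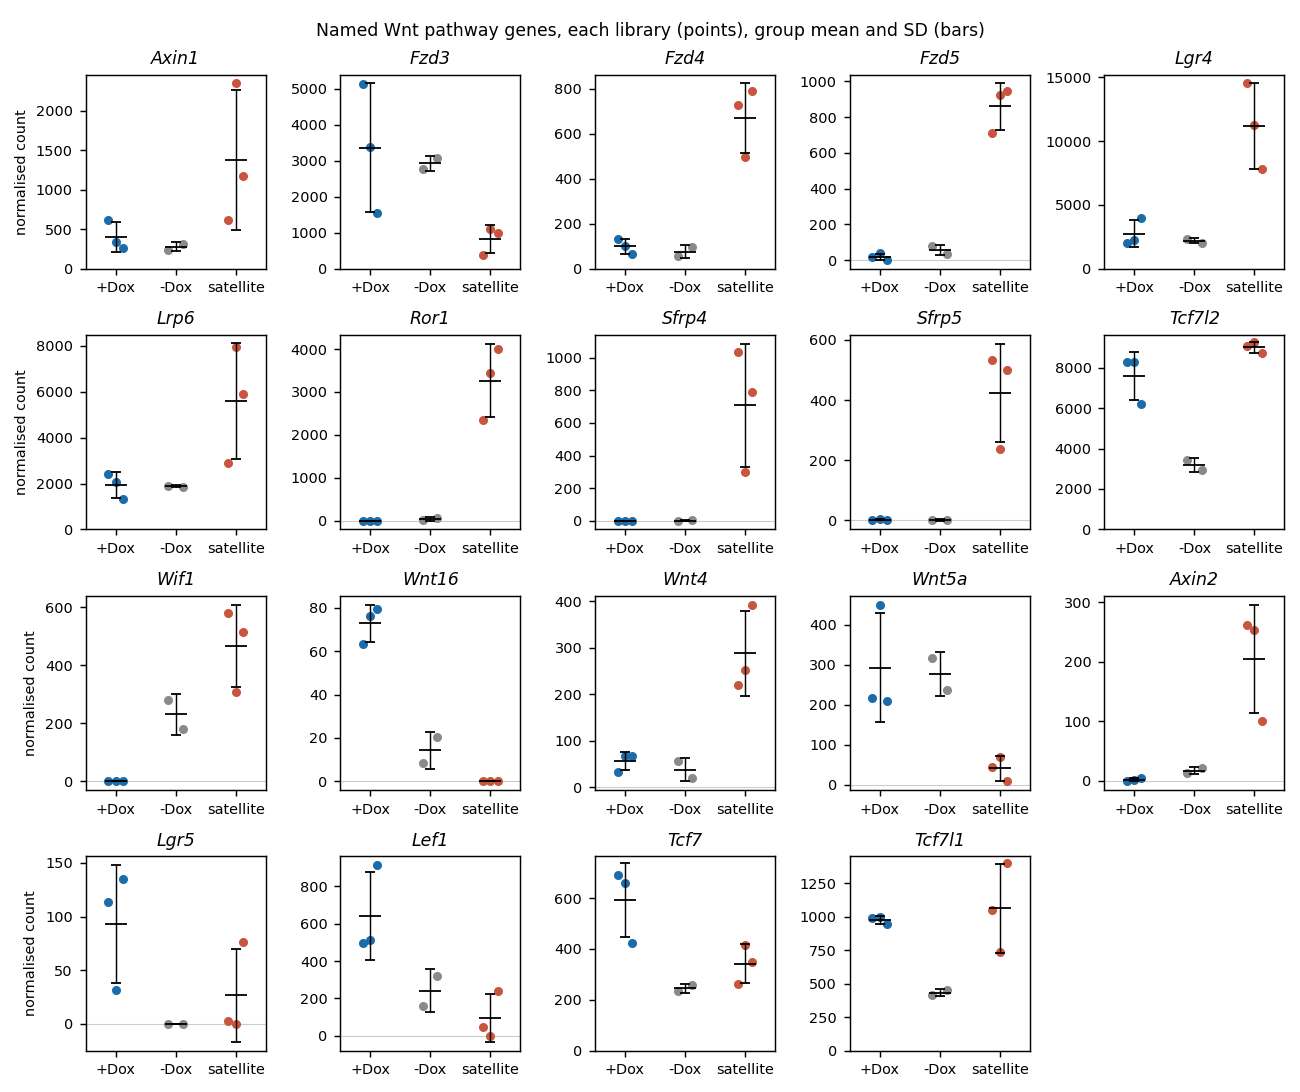
Normalised counts (y axis, 1 panel per gene) of 19 named Wnt pathway genes in each library (points) of +Dox (3), -Dox (2) and satellite cells (3), with the group mean and SD as bars. Tcf7l2 dropped in both -Dox libraries, Wif1 was at or near 0 in +Dox alone, and Ror1, Sfrp4 and Sfrp5 were high in satellite cells alone.

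Wnt ligands were expressed at low levels throughout. Per length of exon, the 19 ligands summed to 2.82 CPM per kb in +Dox, 2.43 in -Dox and 2.82 in satellite cells, where the receptors summed to 29.3, 30.3 and 41.5. The ligand with the highest level per length was Wnt5a in +Dox (0.791 ± 0.368 CPM per kb, SD, n = 3), Wnt9a in -Dox (1.25 ± 0.281, n = 2) and Wnt4 in satellite cells (1.45 ± 0.464, n = 3). In +Dox Wnt9a followed at 0.531 ± 0.0990, within the spread of Wnt5a. None of the 10 tested ligands was called in -Dox against +Dox. In satellite cells against +Dox 1 was called higher (Wnt4) and 3 lower (Wnt2, Wnt5a and Wnt16), beside the 44.9% of all genes called. Against -Dox 2 were called higher (Wnt4 and Wnt11) and 2 lower (Wnt5a and Wnt16), beside 39.0%. The ligands were thus called about as often as genes in general.

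Wnt4, a ligand that acts in kidney, gonad and muscle development, had normalised counts of 33.1, 67.4 and 68.3 in +Dox, 56.1 and 20.3 in -Dox, and 220, 252 and 393 in satellite cells. Every satellite cell library was above every progenitor library. The log2 fold change was 2.36 against +Dox (SE 0.75, adjusted p = 0.0295) and 2.91 against -Dox (SE 0.91, adjusted p = 0.0300). These calls are near the threshold. The first was lost without +Dox 1, +Dox 2, +Dox 3 or satellite cell 3 (adjusted p = 0.101, 0.0767, 0.0513 and 0.0755), and the second without -Dox 1, -Dox 2, +Dox 2 or satellite cell 3 (adjusted p = 0.0666, 0.191, 0.0503 and 0.0632).

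Wnt5a, the main ligand of β-catenin-independent signalling through Ror receptors, went the other way. Its normalised counts were 218, 449 and 210 in +Dox, 316 and 237 in -Dox, and 44.8, 69.7 and 9.23 in satellite cells. The progenitor groups overlapped and the satellite cell libraries were all below them. Wnt5a was lower by -2.82 on the log2 scale against +Dox (SE 0.82, adjusted p = 0.0199) and by -2.74 against -Dox (SE 0.86, adjusted p = 0.0314). The first call was lost without +Dox 2 (adjusted p = 0.0748), and the second without -Dox 1, -Dox 2 or satellite cell 1 (adjusted p = 0.13, 0.0749 and 0.0534). The Wnt5a call against -Dox was also lost with only the 2 groups compared. An antisense gene overlaps the exons of Wnt5a. Since the strand setting of the counting is not given in the sources used here, the reads of these genes cannot be told apart. The same holds for Axin2, Ctnnb1, Sfrp2, Tcf7l1, Wnt7b and Wnt11.

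Wnt16, a ligand known from bone and from muscle progenitor patterning in fish, had normalised counts of 63.1, 76.3 and 79.2 in +Dox and 8.27 and 20.3 in -Dox, and was at 0 in all 3 satellite cell libraries. The groups were ordered without overlap. It was at least 18.3-fold higher in +Dox than in satellite cells (adjusted p = 0.00567) and at least 3.59-fold higher in -Dox (adjusted p = 0.0194), while -Dox against +Dox did not pass the test (adjusted p = 0.418). The call against -Dox was lost without -Dox 2, and also with only the 2 groups compared. Wnt2 was counted in +Dox alone, at 46.6, 23.0 and 37.3, and was at 0 in all 5 other libraries. It was at least 8.96-fold higher in +Dox than in satellite cells (adjusted p = 0.0229), and at least 12.9-fold higher than in -Dox, a difference that did not pass the test (adjusted p = 0.114). Wnt11, a ligand of cell movements in the embryo, had 22.5, 11.8 and 4.55 in +Dox, 0.919 and 0 in -Dox, and 31.6, 57.6 and 33.0 in satellite cells. It was 88.2 times higher in satellite cells than in -Dox, with a counting interval of 15.4 to 3523 (adjusted p = 0.0379).

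The other 5 tested ligands were called in no comparison. Wnt9a had 87.1, 97.0 and 66.5 in +Dox, 165 and 228 in -Dox, and 71.1, 26.8 and 62.0 in satellite cells, so that both -Dox libraries exceeded all others (adjusted p = 0.45 against +Dox). Wnt2b, Wnt5b, Wnt6 and Wnt7b did not exceed 75.0 normalised counts in any library. Wnt2, and the other genes named below for fold changes that do not meet the naming rule given with the methods, were chosen after their values were seen.

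Receptors differed between progenitors and satellite cells about as often as all genes tested. Of 13 tested, 5 were called higher in satellite cells than in +Dox (Fzd4, Fzd5, Fzd8, Lrp6 and Ror1) and 1 lower (Fzd3), beside the 44.9% of all genes called. Against -Dox 4 were called higher (Fzd4, Fzd5, Lrp6 and Ror1) and 1 lower (Fzd3), beside 39.0%.

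Fzd3, a Frizzled best known from axon guidance and planar cell polarity, was the receptor with the highest level per length in the progenitors, at 16.8 ± 8.98 CPM per kb in +Dox and 14.7 ± 1.04 in -Dox. It had 5146, 3385 and 1554 normalised counts in +Dox, 2783 and 3078 in -Dox, and 375, 1105 and 992 in satellite cells. The progenitor groups overlapped, the satellite cell libraries lay below both, and the +Dox libraries were spread widely. The log2 fold change was -2.03 against +Dox (SE 0.51, adjusted p = 0.0104) and -1.83 against -Dox (SE 0.54, adjusted p = 0.0249), and the latter call was lost without -Dox 1 or -Dox 2 (adjusted p = 0.0803 and 0.0897). In satellite cells the highest receptor levels per length were those of Lrp6 (12.0 ± 5.46 CPM per kb) and Ror1 (12.0 ± 3.13), which did not differ beyond their spread.

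Fzd4, a Frizzled that also serves norrin in blood vessels, had normalised counts of 132, 101 and 66.5 in +Dox, 56.1 and 96.0 in -Dox, and 727, 496 and 789 in satellite cells. Fzd5 had 18.03, 37.8 and 1.82 in +Dox, 78.1 and 36.0 in -Dox, and 711, 921 and 946 in satellite cells. For both, every satellite cell library exceeded every progenitor library. Fzd4 was higher than +Dox by 2.75 on the log2 scale (SE 0.54, adjusted p = 0.0032) and than -Dox by 3.14 (SE 0.65, adjusted p = 0.00476). Fzd5 was higher by 5.47 (SE 0.96, adjusted p = 0.00164) and by 3.91 (SE 1.05, adjusted p = 0.0163). Against -Dox, the call of Fzd4 was lost without -Dox 1 (adjusted p = 0.0544) and that of Fzd5 without -Dox 1 or -Dox 2 (adjusted p = 0.0626 and 0.116). Fzd4 is expressed in endothelium, whose 5 markers were all called higher in the satellite cell libraries. The part of endothelial cells in the Fzd4 difference was not tested.

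Lrp6, the β-catenin co-receptor, had normalised counts of 2424, 2061 and 1322 in +Dox, 1913 and 1871 in -Dox, and 2909, 7946 and 5926 in satellite cells. The satellite cell libraries were above the others, and they ranged widely among themselves. The log2 fold change was 1.53 against +Dox (SE 0.39, adjusted p = 0.011) and 1.56 against -Dox (SE 0.45, adjusted p = 0.0218), and the latter call was lost without -Dox 1, -Dox 2 or satellite cell 2 (adjusted p = 0.118, 0.129 and 0.0555). Both Lrp6 calls were lost when the 2 groups compared were blocked on library number. Lrp5, its relative, was called in no comparison, with 129, 206 and 189 in +Dox, 75.4 and 49.8 in -Dox, and 195, 210 and 229 in satellite cells.

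The remaining 6 tested receptors, Fzd1, Fzd2, Fzd6, Fzd7, Fzd9 and Ror2, were also called in no comparison. Fzd2 and Fzd7, receptors common in progenitor cells, were higher in both -Dox libraries than in all other libraries. Fzd2 had normalised counts of 95.4, 115 and 107 in +Dox, 353 and 448 in -Dox, and 21.1, 0 and 72.5 in satellite cells. Fzd7 had 432, 462 and 192 in +Dox, 1101 and 937 in -Dox, and 274, 105 and 483 in satellite cells. In -Dox against +Dox their adjusted p-values were 0.447 and 0.221. Fzd1 went the other way, with 833, 939 and 865 in +Dox, 315 and 515 in -Dox, and 234, 432 and 535 in satellite cells. Fzd6, Fzd9 and Ror2 were at 0 to 340 normalised counts, with overlap between satellite cells and each progenitor group. Between the progenitor groups Fzd9 did not overlap, with 0, 0 and 23.7 in +Dox and 90.1 and 126 in -Dox (adjusted p = 0.406). Fzd8, called higher in satellite cells than in +Dox alone, had 39.1, 14.1 and 16.4 in +Dox, 34.9 and 25.8 in -Dox, and 163, 88.5 and 203 in satellite cells (log2 fold change 2.70, adjusted p = 0.0384).

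Ror1 had one of the largest differences between satellite cells and progenitors, with the per-library counts given above. It was at least 1359-fold higher in satellite cells than in +Dox (adjusted p = 8.63e-05) and 6.36 higher on the log2 scale than in -Dox (SE 0.87, adjusted p = 0.00118). Beside it, Wnt5a, a ligand of Ror1, was lower in satellite cells, as described.

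Among the R-spondin and Lgr genes, Lgr4 was the abundant receptor and the only one of the 6 tested that was called in the same direction against both progenitor groups. Lgr4, a G protein-coupled receptor for R-spondins, had normalised counts of 1996, 2252 and 3948 in +Dox, 2343 and 2049 in -Dox, and 14540, 11268 and 7789 in satellite cells. Every satellite cell library was above every progenitor library. The log2 fold change was 2.04 against +Dox (SE 0.34, adjusted p = 0.00138) and 2.35 against -Dox (SE 0.41, adjusted p = 0.00185). Per length, Lgr4 was at 9.82 ± 3.81 CPM per kb in +Dox, 7.89 ± 0.745 in -Dox and 40.2 ± 12.1 in satellite cells.

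The stem cell markers Lgr5 and Lgr6 were low and were seen mostly in +Dox. Lgr5 had normalised counts of 113, 31.1 and 135 in +Dox, 0 in both -Dox libraries, and 2.63, 0 and 76.5 in satellite cells. The +Dox and -Dox libraries did not overlap, and 1 satellite cell library lay within the +Dox range. Lgr5 was at least 33.7-fold higher in +Dox than in -Dox without passing the test (adjusted p = 0.117). Lgr6 had 16.5, 33.3 and 25.5 in +Dox, 1.84 and 0.923 in -Dox, and 0 in all 3 satellite cell libraries, and was at least 6.32-fold higher in +Dox than in satellite cells (adjusted p = 0.0201). Of the R-spondin ligands, which bind these receptors, Rspo1 was called in no comparison (140, 131 and 88.3 in +Dox, 17.5 and 24.9 in -Dox, and 19.7, 0 and 0 in satellite cells). Rspo2 was called lower in satellite cells than in +Dox (10.5, 34.1 and 57.4 in +Dox and 0 in every satellite cell library, adjusted p = 0.0431). Rspo3 was at 0 in every +Dox library, at 23.0 and 92.3 in -Dox, and at 84.3, 8.04 and 2.64 in satellite cells. It was called higher in satellite cells than in +Dox (at least 13.2-fold, adjusted p = 0.0241), with 1 library at a much higher level than the other two, and it did not pass the test in -Dox (at least 24.0-fold, adjusted p = 0.0704).

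Antagonists, a class set by gene name alone, summed to 3.11 CPM per kb in +Dox, 10.4 in -Dox and 16.8 in satellite cells. A different gene had the highest mean level per length in each group. It was Dkk3 in +Dox (1.46 ± 0.628 CPM per kb), Sfrp2 in -Dox (4.84 ± 2.17) and Sfrp5 in satellite cells (4.71 ± 1.81). These ranks lay within the spread in +Dox, where Sfrp2 was at 1.01 ± 0.678, and in satellite cells, where Wif1 was at 4.07 ± 1.24 and Sfrp4 at 3.70 ± 1.97. Of the 7 tested, 3 were called higher in satellite cells than in +Dox (Sfrp4, Sfrp5 and Wif1) and 2 higher than in -Dox (Sfrp4 and Sfrp5), and none was called lower. Of all genes tested, 44.9% were called against +Dox (25.1% higher) and 39.0% against -Dox (20.9% higher).

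Sfrp4 and Sfrp5 encode secreted Frizzled-related proteins, which bind Wnt ligands outside the cell. Sfrp4 had normalised counts of 0 in all 3 +Dox libraries, 0 and 0.923 in -Dox, and 1039, 298 and 789 in satellite cells. Sfrp5 had 1.5, 3.70 and 0 in +Dox, 2.76 and 0 in -Dox, and 534, 236 and 499 in satellite cells. Both were thus at the detection limit in the progenitors, with and without Dox, and at 236 or more in every satellite cell library. Sfrp4 was at least 294.8-fold higher than in +Dox (adjusted p = 0.000286), and the ratio to -Dox was 1543 with a counting interval of 277 to 60995 (adjusted p = 0.00115). Sfrp5 was higher by 7.80 on the log2 scale against +Dox (SE 1.34, adjusted p = 0.00149), and the ratio to -Dox was 307 with a counting interval of 105 to 1491 (adjusted p = 0.00435). Proteins of this family are also made by fibroblasts, whose markers were higher in the satellite cell libraries as given above. The part of those cells was not tested.

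Sfrp2, an antagonist expressed by differentiating and mesenchymal cells, had normalised counts of 32.3, 104 and 170 in +Dox, 336 and 649 in -Dox, and 225, 61.7 and 64.6 in satellite cells. The -Dox libraries exceeded all others, without passing the test against +Dox (adjusted p = 0.176). The other 3 tested antagonists were called in no comparison, and all their groups overlapped. Dkk2 had 0 to 144 normalised counts over the 8 libraries, Sfrp1 43.2 to 196 and Dkk3 97.9 to 601.

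Axin1 and β-catenin (Ctnnb1) are ubiquitous parts of the cytoplasmic machinery, and Axin2 is a feedback inhibitor and a widely used readout of β-catenin activity. Ctnnb1 had the highest mean level per length of the 56 genes, at 59.6 ± 9.64 CPM per kb in +Dox, 38.1 ± 2.66 in -Dox and 44.9 ± 12.5 in satellite cells. In satellite cells this rank lay within the spread, with Lgr4 at 40.2 ± 12.1. Ctnnb1 had 16056, 15316 and 11713 normalised counts in +Dox, 8732 and 9638 in -Dox, and 8241, 10110 and 14121 in satellite cells. It was called in no comparison, although both -Dox libraries were below all +Dox libraries (adjusted p = 0.243).

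Axin2 had normalised counts of 0, 0.741 and 4.55 in +Dox, 12.9 and 21.2 in -Dox, and 262, 253 and 100 in satellite cells. The 3 groups were ordered without overlap, from at most 4.55 in +Dox to at least 100.2 in satellite cells. The log2 fold change of satellite cells against +Dox was 6.81 (SE 1.43, adjusted p = 0.00441). Neither -Dox against +Dox (3.23, adjusted p = 0.187) nor satellite cells against -Dox (3.58, adjusted p = 0.0739) passed the test. Axin1 had 612, 338 and 259 in +Dox, 240 and 318 in -Dox, and 616, 2352 and 1176 in satellite cells, with log2 fold changes of 1.78 against +Dox (SE 0.55, adjusted p = 0.0263) and 2.31 against -Dox (SE 0.66, adjusted p = 0.0208). The lowest satellite cell library was barely above the highest +Dox library, and the call against +Dox was lost without +Dox 2, +Dox 3 or satellite cell 2 (adjusted p = 0.0868, 0.0802 and 0.111). The call against -Dox was lost without -Dox 1, -Dox 2 or satellite cell 2 (adjusted p = 0.135, 0.0917 and 0.0572).

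The Tcf/Lef factors summed to 30.6 CPM per kb in +Dox, 12.9 in -Dox and 31.4 in satellite cells. Tcf7l2 took the largest part, with 18.3 ± 2.89, 7.71 ± 0.794 and 21.8 ± 0.657. Tcf7l1, the member of the family that mostly represses, had normalised counts of 989, 996 and 944 in +Dox, 416 and 453 in -Dox, and 1053, 739 and 1402 in satellite cells. Both -Dox libraries lay below all 6 others. Tcf7l1 was 1.29 higher on the log2 scale in satellite cells than in -Dox (SE 0.39, adjusted p = 0.0276), and the difference between -Dox and +Dox did not pass the test (-1.17, adjusted p = 0.110).

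Tcf7 and Lef1, which mark cells with active β-catenin signalling in many tissues, were highest in +Dox. Tcf7 had normalised counts of 692, 660 and 425 in +Dox, 233 and 258 in -Dox, and 262, 416 and 347 in satellite cells. Lef1 had 497, 513 and 912 in +Dox, 159 and 322 in -Dox, and 44.8, 0 and 241 in satellite cells. For both, all +Dox libraries exceeded all other libraries. Neither was called in -Dox (Tcf7 adjusted p = 0.176, Lef1 adjusted p = 0.659) or in satellite cells against +Dox (adjusted p = 0.160 and 0.110).

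The rest of the pathway was followed through 6 lists of known components, of which 74 genes outside the 56 could be tested. In -Dox against +Dox, 2 of the 74 were called higher and 4 lower (8.11%, beside the 7.7% of all genes). The higher genes were Celsr3 and Scrib, components of planar cell polarity, in a list of which 11 of 13 tested genes were not called. The lower genes were Rnf43, Myc, Bmp4 and Ctbp2. None of the 23 tested genes of cytoplasmic transduction and the destruction complex was called. In satellite cells 20 were called higher and 8 lower against +Dox (37.8%), and 17 higher and 9 lower against -Dox (35.1%), shares that lie below the background of those comparisons.

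Rnf43 encodes a ubiquitin ligase that removes Frizzled receptors and is opposed by R-spondins. Its normalised counts were 261, 312 and 272 in +Dox, 0.919 and 2.77 in -Dox, and 0 in all 3 satellite cell libraries. It was lower in both other groups (log2 fold change -7.16 in -Dox, SE 1.29, adjusted p = 0.0166, and at least 70.9-fold higher in +Dox than in satellite cells, adjusted p = 0.000691). Its relative Znrf3 had 2984, 3911 and 3234 in +Dox, 3270 and 3204 in -Dox, and 5628, 9870 and 10056 in satellite cells, higher by 1.34 against +Dox (SE 0.28, adjusted p = 0.00437).

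Wls carries Wnt ligands to the cell surface, and was 1 of 3 tested genes of Wnt secretion. It had 25797, 24394 and 13230 normalised counts in +Dox, 29007 and 28526 in -Dox, and 7302, 4406 and 5273 in satellite cells. It was lower in satellite cells by -1.90 against +Dox (adjusted p = 0.0012) and by -2.35 against -Dox (adjusted p = 0.000715), and the other two genes of the list were not called.

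Of 16 tested genes often used as β-catenin targets, 3 were called lower in -Dox (Rnf43, Myc and Bmp4) and none higher. Of all genes tested, 3.04% were called lower and 4.66% higher in that comparison. In satellite cells against +Dox, 6 were called higher (Axin2, Znrf3, Myc, Tnfrsf19, Apcdd1 and Bmp4) and 2 lower (Rnf43 and Ccnd1), so that 8 of 16 were called, beside 44.9% of all genes. The members of this list thus moved in both directions, and their median log2 fold change of 1.72 stood beside 0.174 over all genes. Myc, a general growth regulator, had 7531, 6962 and 6918 in +Dox, 3672 and 4021 in -Dox, and 118016, 149572 and 154469 in satellite cells. Ccnd1, which encodes cyclin D1, had 11582, 10960 and 14152 in +Dox, 8805 and 10422 in -Dox, and 1551, 1469 and 1718 in satellite cells. Bmp4, a ligand of a different pathway, had 925, 798 and 1186 in +Dox, 43.2 and 125 in -Dox, and 8292, 7571 and 5774 in satellite cells.

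Peak lists of 4 histone marks were compared at promoters, taken as 1 kb on each side of any annotated start site. H3K4me3 marks active or poised promoters, H3K27Ac active promoters and enhancers, H3K4me1 mainly enhancers and promoter flanks, and H3K27me3 genes silenced by Polycomb. Each list, and likewise each ATAC-seq list, was called on merged replicates, so the following are counts with no test.

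The Wnt pathway genes carried H3K27me3 far more often than genes in general. In +Dox 41 of 56 promoters (73.2%) had an H3K27me3 peak, against 23.2% of 20660 annotated genes, and in 3-day -Dox 35 (62.5%) against 21.2%. They were also above the general share for H3K4me3, with 46 (82.1% against 62.7%) in +Dox and 49 (87.5% against 68.7%) in -Dox, and below it for H3K27Ac, with 20 (35.7% against 50.2%) and 16 (28.6% against 47.1%). H3K4me1 was at 49 (87.5% against 64.2%) and 51 (91.1% against 67.7%). H3K4me3 and H3K27me3 occurred together at 33 promoters in +Dox (58.9% against 13.9%) and 31 in -Dox (55.4% against 14.8%). The H3K4me3 list covered 63.6 Mb in +Dox and 155 Mb in -Dox, and the H3K27me3 list 91.7 and 65.9 Mb, so a gain or loss between the lists moves with how much was called.

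**Figure D3:**
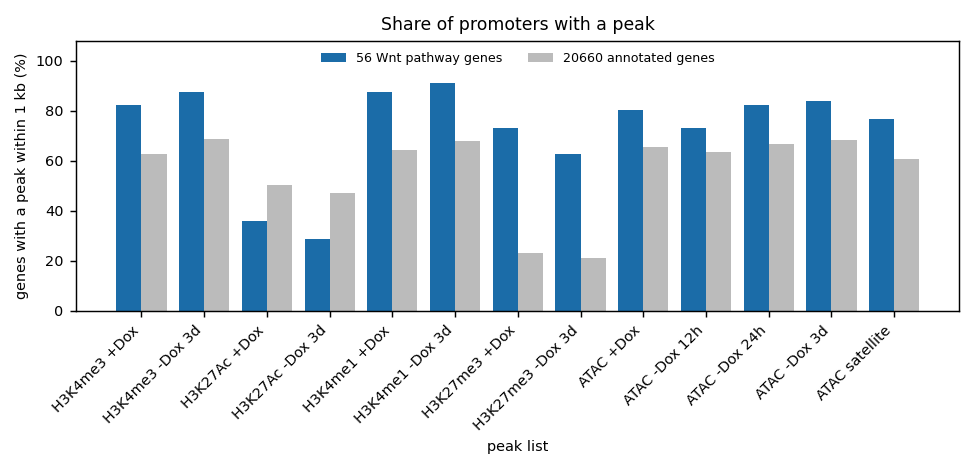
Share of promoters (y axis, percent) with a peak of each mark or of ATAC-seq (x axis), for the 56 Wnt pathway genes and for 20660 annotated genes, in each condition with a list. H3K27me3 stood out, at 73.2% of the Wnt pathway genes against 23.2% of all genes in +Dox.

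Ligands and antagonists carried H3K27me3 almost throughout, and the other roles were mixed. All Wnt ligands but Wnt8a had it in +Dox, as did all antagonists but Dkk4 and all R-spondin and Lgr genes but Lgr4. Of the 14 receptors 6 had it (Fzd3, Fzd6, Fzd9, Fzd10, Ror1 and Ror2) and 8 did not. Tcf7, Lef1 and Axin2 had it, and Tcf7l1, Tcf7l2, Axin1 and Ctnnb1 did not. The 13 promoters with H3K4me3 and no H3K27me3 in +Dox were those of Axin1, Ctnnb1, Lgr4, Lrp5, Lrp6, Tcf7l1, Tcf7l2, Fzd1, Fzd2, Fzd4, Fzd5, Fzd7 and Fzd8, and none was a ligand or an antagonist. The median normalised count in +Dox was 403 for these 13, 25.2 for the 33 with both marks and 0 for the 8 with H3K27me3 alone. It was 382 for the 20 with H3K27Ac and 4.99 for the 36 without. The number of CG dinucleotides did not follow this division, with a median of 20 in the promoters with H3K27me3 and 21 in those without. The part of the higher number of CG dinucleotides in these promoters than in all genes' promoters, given above, in the share with H3K27me3 was not tested.

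**Figure D4:**
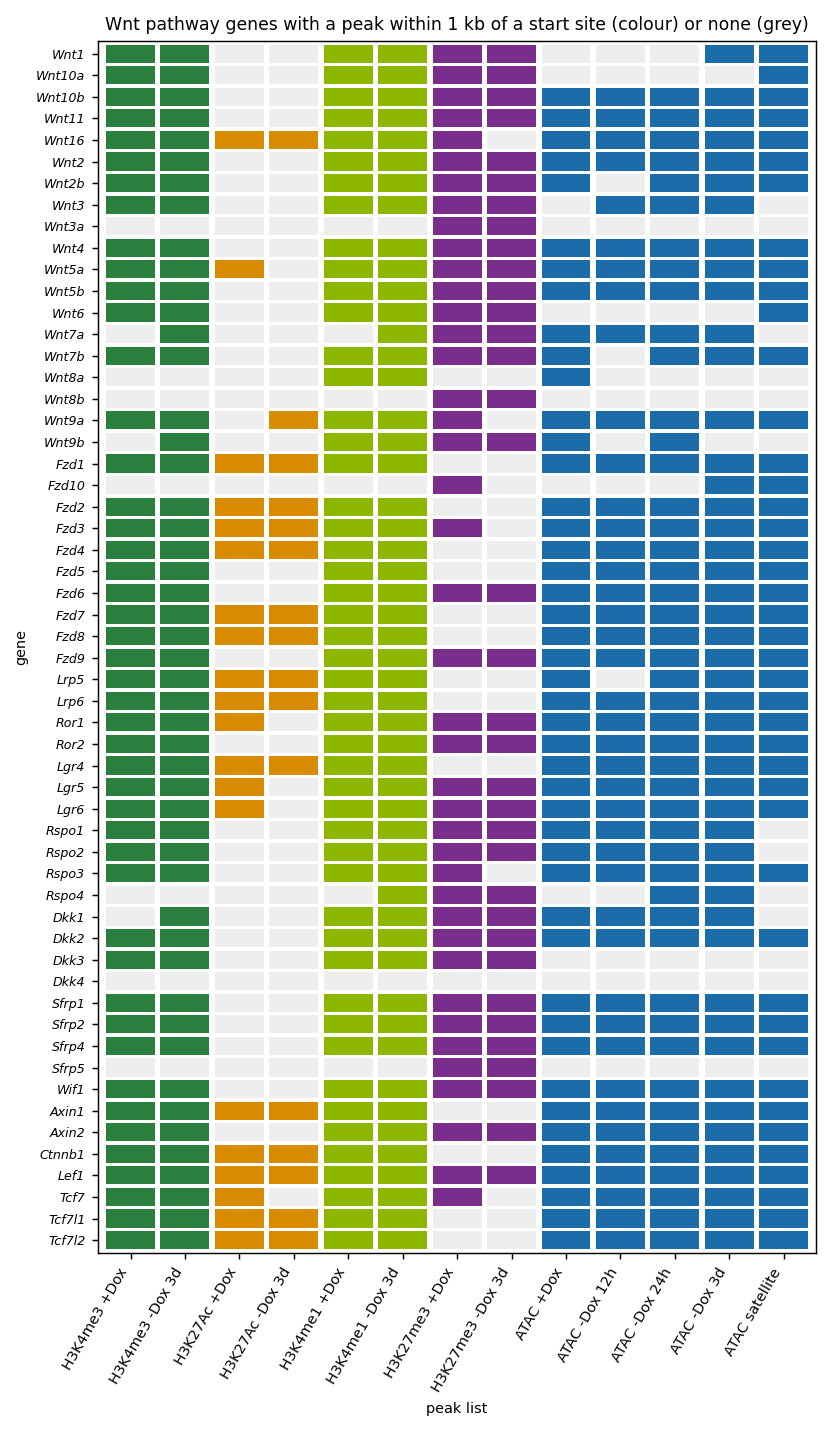
Presence (coloured) or absence (grey) of a peak within 1 kb of a start site for each of the 56 Wnt pathway genes (rows, by role) in each histone mark and ATAC-seq list (columns). Ligand and antagonist rows carry H3K27me3 almost throughout, and the rows of Axin1, Ctnnb1, Lgr4, Lrp5, Lrp6, Tcf7l1 and Tcf7l2 lack it.

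The genes called after withdrawal differed in these marks. Ror1 and Wif1, called higher in -Dox, had both H3K4me3 and H3K27me3 in +Dox and in -Dox. Tcf7l2, called lower, had H3K4me3 and H3K27Ac and no H3K27me3 in both. At Ror1 an H3K27Ac peak was listed in +Dox, where no read of the gene was counted, and not in -Dox. ATAC-seq peaks stood at all 3 promoters in every condition, with fold enrichments of 19.1 in +Dox, 27.9 at 3 days and 14.7 in satellite cells for Ror1, 12.4, 8.97 and 11.7 for Wif1, and 18.6, 11.8 and 11.5 for Tcf7l2.

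Between the lists, 6 promoters had H3K27me3 in +Dox alone (Fzd3, Fzd10, Rspo3, Tcf7, Wnt9a and Wnt16) and none in -Dox alone. Of these, Rspo3 and Wnt9a had more normalised counts in -Dox than in every +Dox library, and Tcf7 and Wnt16 fewer, and none of the 4 was called. H3K27Ac was listed in +Dox alone at Lgr5, Lgr6, Ror1, Tcf7 and Wnt5a, and in -Dox alone at Wnt9a. In +Dox 8 promoters had H3K27Ac and H3K27me3 peaks together (Fzd3, Lef1, Lgr5, Lgr6, Ror1, Tcf7, Wnt5a and Wnt16), and in -Dox 1 (Lef1).

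Open chromatin at the promoters was common in all conditions, at 45 of 56 genes (80.4% against 65.6% of all genes) in +Dox, 41 (73.2% against 63.6%) at 12 h, 46 (82.1% against 66.8%) at 24 h, 47 (83.9% against 68.2%) at 3 days, and 43 (76.8% against 60.7%) in satellite cells. It thus covered many genes whose transcripts were at or near 0. Sfrp4, at or near 0 in the progenitors, had peak enrichments of 5.42 in +Dox, 12.7 at 3 days and 17.4 in satellite cells. Sfrp5 had no ATAC-seq peak at its promoter in any list, including that of satellite cells, where it was expressed.

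No Pax7 site lay within 1 kb of a start site of the 56 genes, where 1.65% of all genes had one. The Pax7 list held 2455 sites, kept by the authors for being present in +Dox and absent without Dox. Within 100 kb, 11 sites had a start site of 1 of these genes as the nearest of all genes, for 7 of the 56 (12.5% against 6.9% of all genes). They were 3 sites at Tcf7l2, 2 each at Tcf7l1 and Lgr6, and 1 each at Fzd4, Lgr5, Rspo3 and Wnt16. Of these, 8 lay in an intron of the gene, those of Lgr5 and Wnt16 upstream, and that of Fzd4 over an exon. Nearness does not show which gene a site acts on.

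The central 200 bases of 4 of the 11 sites are shown as examples, 1 for each of 4 genes that had fewer normalised counts in both -Dox libraries than in any +Dox library. Tcf7l1 also met this description, and its sites, like the other sites of Lgr6 and Tcf7l2, are not shown. Of these genes Tcf7l2 alone was called in -Dox against +Dox by the edgeR test. The adjusted p was 0.117 for Lgr5, 0.282 for Lgr6, 0.418 for Wnt16 and 0.110 for Tcf7l1. The share of all genes with such a separation was not counted. Of the other genes with a site, Rspo3 went the other way, at 0 in every +Dox library and 23.0 and 92.3 in -Dox. The +Dox and -Dox libraries overlapped for Fzd4. The examples were picked by their counts, so they do not show how genes near Pax7 sites respond. Each sequence shown is in the mm9 build on the + strand. Capitals mark the homeodomain core ATTA or TAAT and the paired-domain core GTCAC or GTGAC, the letter strings usual in sites of Pax proteins. Distances run to the nearest annotated start of the gene. Lgr6 has 3 annotated starts and Tcf7l2 17, and for the sites shown of these genes the nearest is an internal start. Both sites lie further from the outermost start of their gene. The site of Lgr5, 19.18 kb from its start, is at chr10:115043919-115044118. That of Lgr6, 2.56 kb from an internal start, is at chr1:136911693-136911892. The Tcf7l2 site, 67.01 kb from an internal start and not from the start of the promoter shown above, is at chr19:55900734-55900933. That of Wnt16, 8.1 kb from its start, is at chr6:22230024-22230223.
Lgr5: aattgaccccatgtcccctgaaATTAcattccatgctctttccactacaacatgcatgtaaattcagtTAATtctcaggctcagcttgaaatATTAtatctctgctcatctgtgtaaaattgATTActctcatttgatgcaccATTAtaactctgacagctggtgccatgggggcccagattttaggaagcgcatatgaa
Lgr6: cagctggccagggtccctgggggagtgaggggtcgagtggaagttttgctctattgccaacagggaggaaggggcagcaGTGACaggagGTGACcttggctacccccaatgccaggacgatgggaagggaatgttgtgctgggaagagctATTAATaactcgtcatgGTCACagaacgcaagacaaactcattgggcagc
Tcf7l2: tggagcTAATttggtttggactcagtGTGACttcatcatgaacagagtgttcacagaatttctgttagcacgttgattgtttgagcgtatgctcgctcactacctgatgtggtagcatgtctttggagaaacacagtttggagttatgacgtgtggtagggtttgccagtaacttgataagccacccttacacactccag
Wnt16: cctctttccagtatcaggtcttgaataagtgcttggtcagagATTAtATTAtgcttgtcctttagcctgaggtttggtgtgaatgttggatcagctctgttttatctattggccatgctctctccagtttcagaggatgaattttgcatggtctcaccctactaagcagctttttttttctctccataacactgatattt
ATTA or TAAT was present in the central 200 bases of all 11 sites, against 72.1% of the 2455 sites. The longer palindrome TAATNNATTA was in none of the 11 and in 0.733% of all. GTCAC or GTGAC was in 6 of the 11 (54.5%) and in 36.8% of all. The searches covered both strands, and these strings are short enough to occur often by their length.

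Of the 11 sites, all overlapped H3K4me1 and ATAC-seq peaks in +Dox (91.2% and 95.4% of all Pax7 sites), 10 overlapped H3K4me3 (66.3%) and 9 H3K27Ac (73.2%), and none overlapped H3K27me3 (4.97%). In satellite cells 6 overlapped an ATAC-seq peak, 54.5% against 53% of all Pax7 sites. In 3-day -Dox progenitors 8 overlapped H3K4me1 (73.8% of all sites), 5 H3K27Ac (37.9%) and 7 an ATAC-seq peak (68%). H3K4me3 was at 9 of the 11 (81.8%) and H3K27me3 at 1 (9.09%), against 75.6% and 3.3% of all sites, so that the share of the 11 sites with H3K4me3 was lower in -Dox than in +Dox and that of all sites higher.

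The ATAC-seq fold enrichment was lower or no longer listed at most of the 11 sites after Dox was withdrawn. At 3 days 4 had no peak, 6 a lower value than in +Dox and 1 a higher one. Over all Pax7 sites 68% had a peak at 3 days. The share of all sites with a lower value was not counted, so the drop cannot be called particular to the 11 sites. The Tcf7l2 site at 67.01 kb had 25.0 in +Dox, 6.89 at 12 h, 3.82 at 24 h, 4.07 at 3 days and 5.47 in satellite cells. The Lgr5 site had 13.6 in +Dox, no peak at 12 h, 24 h or 3 days, and 3.12 in satellite cells. Both sites had their highest value in +Dox. The Wnt16 site had 30.2 in +Dox, 6.42, 14.6 and 20.1 at the later times and 4.30 in satellite cells. The Lgr6 site at 21.69 kb stayed open, with 42.7 in +Dox, 27.6 at 12 h, 47.9 at 24 h and 47.1 at 3 days, and had no peak in satellite cells. It was the 1 site of the 11 with a higher value at 3 days than in +Dox. The values also depend on the list they come from. At the 36 promoters of the Wnt pathway genes with a peak in all 5 lists, the median enrichment was 16.7 in +Dox, 8.52 at 12 h, 15.2 at 24 h, 16.4 at 3 days and 9.08 in satellite cells. The values at 12 h and in satellite cells were thus lower at these promoters also, which include those of genes nearest to the 11 sites, and over all Pax7 sites with a peak the medians were 20.4, 7.24, 9.87, 10.2 and 8.79 in the same order.

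**Figure D5:**
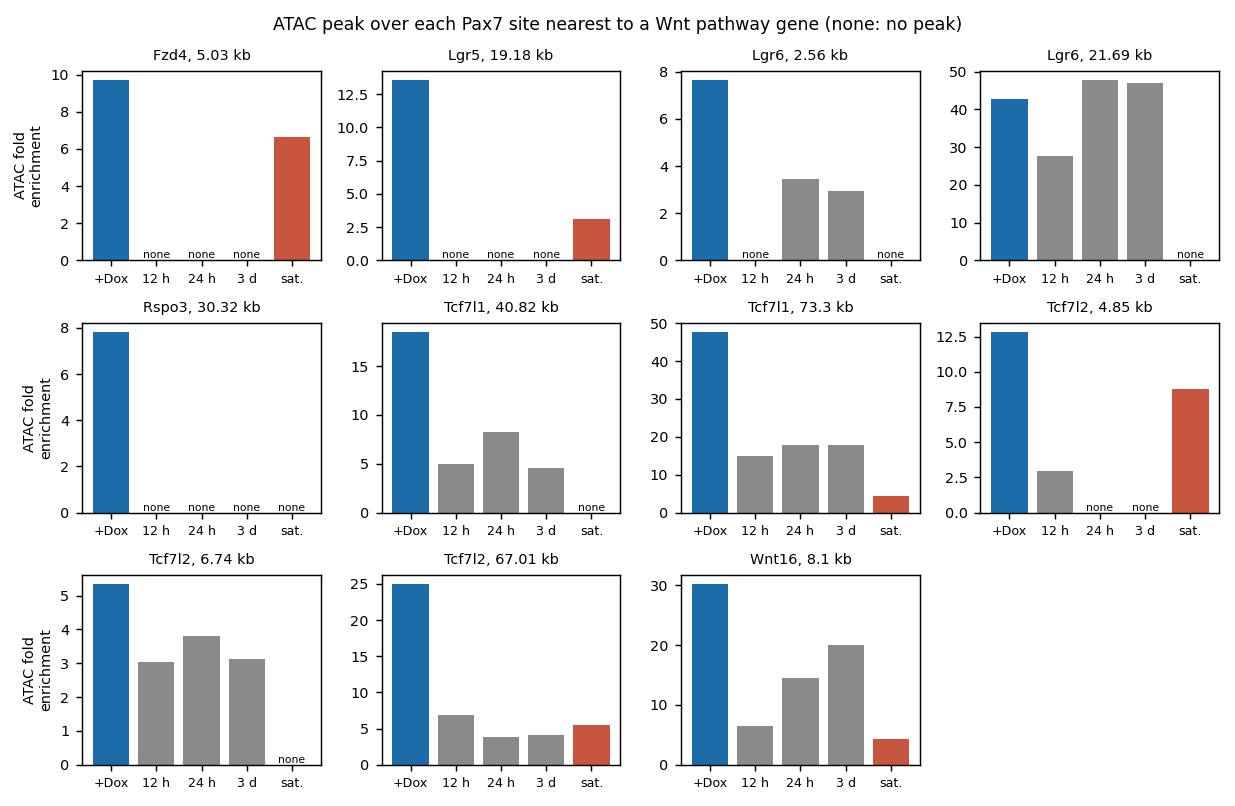
ATAC-seq fold enrichment (y axis, as listed by the peak caller) at the 11 Pax7 sites nearest to a Wnt pathway gene, in +Dox, at 12 h, 24 h and 3 days without Dox, and in satellite cells (x axis). Each panel is 1 site, headed by the gene and the distance to the nearest of its annotated starts. The word none stands where no peak was listed. The site of Lgr6 at 21.69 kb remained near 47.1 at 3 days, and that of Tcf7l2 at 67.01 kb went from 25.0 to 4.07.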

How the data were processed

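RNA-seq was available for 3 groups (3 +Dox, 2 -Dox and 3 satellite cell libraries). The deposited RNA files are raw read counts per gene, which the authors made with TopHat2 and HTSeq per the submitters' processing notes. Rows that name no gene (no feature, 0.002004 to 0.003086%, ambiguous and multiply aligned) were left out. Counts were fitted in 1 model over all 8 libraries with edgeR 4.0.16 (TMM, filterByExpr, quasi-likelihood F test, Benjamini-Hochberg adjustment over 14836 genes), with the SE taken from the log2 fold change and its F value. Levels between genes are TMM-scaled CPM per kb of exon. Against a group at 0 in every library, folds are lower bounds set by 3 counts per library. Where a group held 1 to 3 counts, the ratio has an exact 95% counting interval. Intervals and bounds cover counting error only.

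The deposited ATAC-seq peak lists give fold enrichment and −log10 p-values from MACS2, run by the authors on merged replicates. The deposited histone and Pax7 lists were called by the authors with Qeseq, and the other columns of these lists, including scores, were not used. The build is mm9. Annotation was GENCODE vM1 and sequences were read from that build, for 56 of 56 genes. A promoter is 1 kb on each side of any annotated start, and a site was assigned to the nearest start within 100 kb.

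The genes, lists, marker sets and tests were chosen with earlier results of these data known. Full statistics were given for genes called in -Dox against +Dox or called in 1 direction in satellite cells against both other groups. Levels were given for the highest genes of each role and for Lef1, Tcf7, Tcf7l1, Tcf7l2, Axin2 and Lgr5. The code was tested on simulated data. Alternatives were other size factors, DESeq2 1.42.0, other filters, only the 2 groups compared, a replicate block, an added 2-fold limit, each library left out, and other windows, distances and gene lengths.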

Additional observations from a re-analysis of the deposited data

How the results depend on the processing

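Of 404 recomputed log2 fold changes of the named genes, 364 kept direction and call, 40 kept direction without the call, and 0 changed direction. In -Dox against +Dox the 2 genes called higher became 2 to 3, and the 1 called lower 0 to 1, when 1 library was left out. In satellite cells against -Dox the 12 higher became 5 to 13 and the 3 lower 0 to 5, the fewest without -Dox 1 (5 higher) and -Dox 2 (6 higher, 0 lower). Against +Dox the 13 higher became 9 to 12 and the 6 lower 4 to 8. Where leaving out a -Dox library left 1, that library was taken to vary like the other groups. Library numbers are shared between groups but did not pair them (correlations of deviations -0.0395 to 0.027 for same-numbered libraries). A replicate block over the 2 groups compared gave 5 higher (Wif1 and 4 others, without Ror1) and 7 lower in -Dox against +Dox, and 8 higher and 3 lower in satellite cells against +Dox. Without the block, the same 2 groups gave 4 lower in -Dox against +Dox and 1 lower in satellite cells against -Dox. The DESeq2 Wald test gave 3 lower and 5 lower in those comparisons, and a filter of at least 1 CPM in 2 libraries 3 lower in satellite cells against +Dox. The causes were not tested, except that this filter leaves fewer genes with low counts. Over all genes, the 1142 calls in -Dox against +Dox became 2129 by DESeq2, 2155 with only the 2 groups, 4017 with the block and 488 to 1444 with 1 library left out. The 5780 in satellite cells against -Dox became 3204 without -Dox 1 and 3382 without -Dox 2. With no filter, the median log2 fold change of all genes was 0.505 in satellite cells against -Dox and 0.421 against +Dox. Among other calls, in satellite cells against +Dox Fzd8 was lost when any library but satellite cell 2 was left out, Rspo2 without any +Dox or satellite cell library, Rspo3 without any +Dox library or -Dox 2, Lgr6 without either -Dox library and Wnt2 without +Dox 1. Against -Dox, Tcf7l1 was lost without +Dox 1, +Dox 2, either -Dox library or satellite cell 3, and Wnt11 without +Dox 2, either -Dox library or satellite cell 2. With only the 2 groups compared, Wnt5a, Wnt16 and Tcf7l1 lost the call against -Dox, and Rspo3 that against +Dox. With the block these were lost too. The block also removed Lrp6 and Wnt4 against both progenitor groups, Wnt11 against -Dox, and Axin1, Fzd8, Lgr6, Rspo2 and Wnt2 against +Dox.

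Without a limit on distance, 12 genes in place of 7 were nearest to a Pax7 site. Counts of promoters with a peak stayed within 1.5 times under a 5 kb window and under the longest transcript's start alone. With the length of the longest transcript, the highest gene per length was the same in 18 of 18 combinations of role and group.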
